A study of Mus musculus with 40 samples.

Results

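The transcripts described here are 10 genes of the chemokine system that guides lymphocytes and dendritic cells: the ligands Ccl19, Ccl21a, Ccl17, Ccl22, Cxcl13 and Cxcl12 and the receptors Ccr7, Ccr4, Cxcr5 and Cxcr4. They were taken by symbol from a table of 54087 genes, in which all 10 were listed once. RNA was sequenced from whole CT26 tumors of 40 BALB/c mice, 5 in each of 8 treatment groups. CT26 is a carcinoma line that arose in the colon of a BALB/c mouse. Each mouse had received 1000000 CT26 cells under the skin and mAbs on days 6, 9 and 12, and the tumor was collected on day 13. The groups received mIgG2a - Isotype control (motavizumab), anti-PD1 FcS, anti-TGFb (clone 1D11, which neutralizes active TGF-β), anti-GARP:TGFb WT, anti-GARP:TGFb FcD, or anti-PD1 FcS added to each of the last 3 mAbs. The WT and FcD forms of the anti-GARP:TGFb mAb (clone 58A2) block the release of active TGF-β1 by regulatory T cells, and the Fc part of the FcD form does not bind Fcγ receptors. Anti-PD1 FcS blocks the PD-1 checkpoint of T cells and has a silent Fc part. All mice carried the same transplanted tumor line and all groups received an antibody, so no group without treatment or without tumor was compared.

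CCL19 and CCL21 are the ligands of CCR7. In lymph nodes they are made by stromal cells and high endothelial venules, and they bring naive T cells and mature dendritic cells together in the T cell zone. CXCL13 draws CXCR5+ B cells and follicular helper T cells into follicles, CCL17 and CCL22 are made mainly by dendritic cells and macrophages and act on CCR4 of regulatory and other T cells, and CXCL12, a product of stromal cells, retains CXCR4+ leukocytes in tissues. Outside lymphoid organs the CCR7 and CXCR5 axes are known from tertiary lymphoid structures, which are clusters of B cells, T cells and dendritic cells that can form in tumors.

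The 10 genes lie on 7 chromosomes of the mouse genome (GRCm38, GENCODE annotation) and all are protein-coding. Ccl19 (chr4:42754525-42756577) and Ccl21a (chr4:42772860-42773993) lie close together on the minus strand of chromosome 4, and Ccl22 (chr8:94745590-94751699) and Ccl17 (chr8:94810453-94812036) lie on either side of Cx3cl1 on the plus strand of chromosome 8. Ccr7 lies at chr11:99144196-99155077, Ccr4 at chr9:114490316-114504916, Cxcl13 at chr5:95956951-95961068, Cxcr5 at chr9:44511787-44561877, Cxcl12 at chr6:117168535-117181367 and Cxcr4 at chr1:128588199-128592293. Ccl21a has near copies, and reads from such copies can be split or lost in counting. The copy Ccl21b and the related entries Gm10591 and Gm2564 were at 0 reads in all 40 libraries. The pseudogene Ccl19-ps1 held 19 reads in all.

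Because Ccl19, Ccl21a and Cxcl13 were high in the same few tumors, the 250 bases before their RefSeq starts are shown (GRCm38.p6, 5′ to 3′ on the gene's strand). They span chr4:42756366-42756615 for Ccl19 and chr4:42773992-42774241 for Ccl21a, both on the minus strand, and chr5:95956689-95956938 on the plus strand for Cxcl13. Capitals mark matches, on either strand, to 5 motifs: the STAT motifs TTCNNNGAA and TTCNNNNGAA, the kappaB motif, the interferon motif GAAANNGAAA and the TATA box TATAAA. TTCNNNGAA and TTCNNNNGAA can overlap each other, and the search also covered the 50 bases after each start.
Ccl19: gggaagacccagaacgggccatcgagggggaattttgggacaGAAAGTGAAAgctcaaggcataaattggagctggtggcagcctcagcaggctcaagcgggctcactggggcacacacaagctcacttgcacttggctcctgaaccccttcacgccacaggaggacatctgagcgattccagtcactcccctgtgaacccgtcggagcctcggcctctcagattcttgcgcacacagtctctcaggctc
Ccl21a: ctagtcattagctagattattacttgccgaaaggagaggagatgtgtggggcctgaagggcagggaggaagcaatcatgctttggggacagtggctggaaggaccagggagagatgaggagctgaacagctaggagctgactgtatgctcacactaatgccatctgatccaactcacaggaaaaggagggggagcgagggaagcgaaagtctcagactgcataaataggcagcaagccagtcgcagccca
Cxcl13: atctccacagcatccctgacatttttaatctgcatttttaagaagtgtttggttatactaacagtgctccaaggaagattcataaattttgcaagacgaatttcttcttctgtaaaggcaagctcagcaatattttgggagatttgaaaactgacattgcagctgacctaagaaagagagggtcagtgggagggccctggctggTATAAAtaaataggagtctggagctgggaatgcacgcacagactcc
Ccl19 held 1 GAAANNGAAA match, 208 to 199 bases before the start, and this motif occurs in 3.44% of 32851 mouse promoter windows of the same length. Cxcl13 held 1 TATAAA, 46 to 41 bases before its start, a motif found in 13.6% of windows. Ccl21a held no match to any of the 5 motifs, so these 3 windows shared none of them. Among the other members with a RefSeq window, Ccl17 held 1 match each to TTCNNNGAA and TTCNNNNGAA, which occur in 8.30% and 6.95% of windows, and Cxcr4 held 2 overlapping TATAAA matches. Ccl22, Ccr4 and Cxcl12 held none, and the kappaB motif (4.51% of windows) was found in no member. Of the 10 members, 8 had a window.

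The libraries held between 11931730 and 20680548 counted reads (median 14030511). Levels are given as CPM, the reads of a gene per 1000000 reads of its library after TMM scaling, and levels of different members are compared only as RPKM, the CPM per kilobase of exon. The exon length was the summed exon length of the gene, from 514 bases for Ccl17 to 8176 for Cxcl12. Transcripts shorter than that sum would have a higher RPKM. The median RPKM over the 40 tumors was 8.18 for Cxcr4, 2.51 for Cxcl12, 1.78 for Ccr7, 1.09 for Ccl22, 1.03 for Cxcl13 and 0.935 for Ccl17. It was 0.0786 for Ccl21a, 0.0741 for Cxcr5, 0.0414 for Ccr4 and 0 for Ccl19. Read depth therefore limited the members unequally. Cxcl12 had at least 127 reads and Cxcr4 at least 92 in every library, Ccr7 at least 24 and Ccl22 at least 12. Ccl19 had reads in 10 of 40 libraries, Ccl21a in 21 and Ccr4 in 26, and a library at 0 allows a level of up to 0.145 to 0.251 CPM (3 reads, counting error only). Of the 10 members, 7 passed the filter on low counts and were tested, and Ccl19, Ccl17 and Ccr4 did not.

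The tissue was checked against its markers. The epithelial gene Vil1 reached at most 0.312 CPM and was at 0 in 16 libraries, and Krt20 had reads in all 40 (median 76.9 CPM). Krt8 was 0 to 0.745 CPM in the libraries numbered 41 to 60 and 1.73 to 173 CPM in those numbered 61 to 80, and Epcam 0 to 0.451 and 0.641 to 39.4 CPM, without overlap between these 2 parts. Summed CPM of 8 B cell markers (among them Ms4a1, Cd79a and Pax5) ranged from 1.87 to 17.3 in 34 libraries and from 30.0 to 115 in the other 6. These 6 libraries, in which the sum was over 5 times the median of all 40, were anti-PD1 FcS replicate 1 (42.0 CPM), anti-TGFb replicate 2 (58.3), anti-GARP:TGFb WT replicate 1 (56.9), anti-GARP:TGFb FcD replicate 4 (38.3), anti-TGFb + anti-PD1 FcS replicate 5 (115) and anti-GARP:TGFb WT + anti-PD1 FcS replicate 5 (30.0). No isotype control mouse and no anti-GARP:TGFb FcD + anti-PD1 FcS mouse was among them. They held 14.9% of all reads. Several results that rest on them are given with and without them, and the others include them. Libraries 41 to 60 all had more reads of the Y-linked gene Ddx3y than of Xist and libraries 61 to 80 the reverse. Each group has 2 or 3 mice in each of these parts. In RNA from whole tumor pieces, fewer cells of a type and less RNA per cell cannot be told apart.

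**Figure D1:**
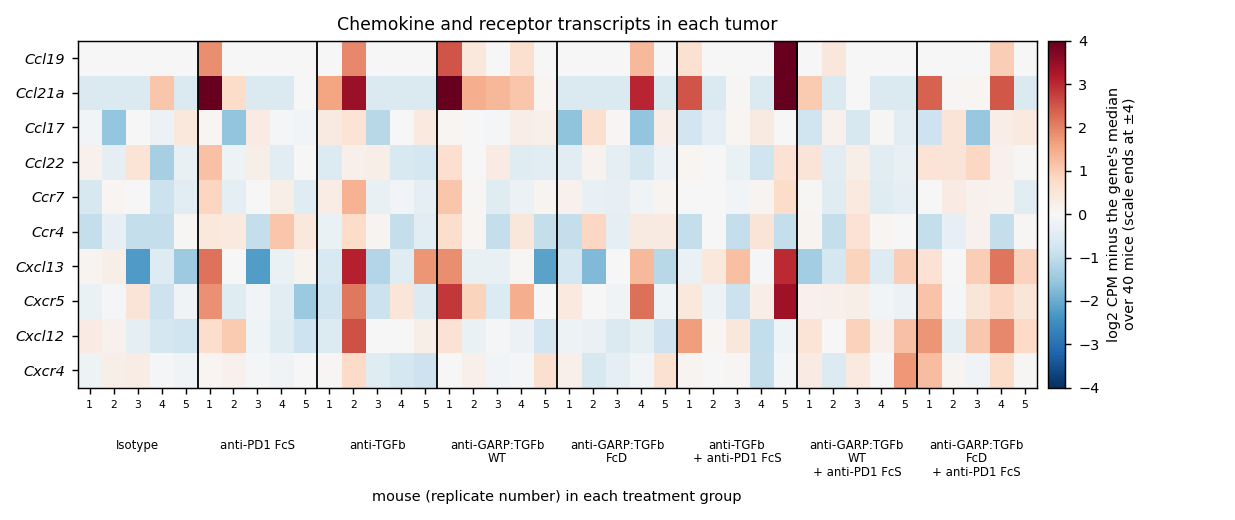
Heat map of the 10 members (rows) in the 40 tumors (columns, 5 mice in each treatment group). Color gives the log2 CPM (prior count 2) minus the gene's median over all tumors, with the color scale ending at 4 in either direction. Ccl19, Ccl21a, Cxcl13 and Cxcr5 are red together in single mice such as anti-TGFb + anti-PD1 FcS replicate 5, and no treatment group is red throughout.

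Against the isotype control, none of the 14760 genes tested, members included, passed an adjusted p of 0.05 with any treatment (0% for each of the 7 comparisons; edgeR quasi-likelihood test, 2-sided, Benjamini-Hochberg). At an unadjusted p under 0.05, 0 of 7 members were found with anti-PD1 FcS, where the share of all genes was 0.955%, 3 with anti-TGFb (Ccr7, Cxcl12 and Cxcl13; 2.32% of all genes), 2 with anti-GARP:TGFb WT (Ccl21a and Cxcr5; 0.969%) and 0 with anti-GARP:TGFb FcD (0.467%). For the combinations the counts were 0 with anti-GARP:TGFb WT + anti-PD1 FcS (20.6% of all genes), 1 with anti-GARP:TGFb FcD + anti-PD1 FcS (Cxcl12; 16.6%) and 3 with anti-TGFb + anti-PD1 FcS (Ccl21a, Cxcl13 and Cxcr5; 20.1%). All 9 of these were higher in treated mice, and the 7 comparisons share the same 5 control mice. The median log2 fold change of the 7 members lay between 0.24 and 1.01 in these comparisons, beside medians of all genes between -0.0041 and 0.022. DESeq2's test also called no member in any of them. The medians of the members include the 6 libraries of high B cell markers, none of which is an isotype control mouse. Several of the single values depended on 1 mouse, as given for each member below.

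Comparisons among the antibodies gave a like result. Addition of anti-GARP:TGFb WT to anti-PD1 FcS gave 0 of 7 members at an unadjusted p under 0.05 (17.2% of all genes), addition of the FcD form 1 (Cxcl12; 10.7%) and addition of anti-TGFb 0 (17.1%). Of these 3 comparisons only the last had any gene with an adjusted p under 0.05, a single gene that is no member (0.00678%), and DESeq2 gave 78 there. The FcD and WT combinations differed in 0 members (1.30% of all genes). The interaction of anti-PD1 FcS with anti-GARP:TGFb WT gave 1 member at an unadjusted p under 0.05 (Ccl21a; 8.75% of all genes), that with anti-GARP:TGFb FcD 0 (4.49%) and that with anti-TGFb 0 (2.31%). For any difference among the 8 groups, 2 members, Ccl21a and Cxcl12, had an unadjusted p under 0.05 (24.7% of all genes) and none an adjusted one (0.0271%, 4 genes; edgeR). A p that misses the threshold does not show that the levels were alike. The ranges of the 5 mice overlapped between every 2 neighbors in the order of group means, for all 10 members. Neighbors in that order have the closest means, so overlap there says little about the members. In the comparisons of 2 groups no tested member was without overlap, beside 0.136% to 3.09% of all genes.

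**Figure D2:**
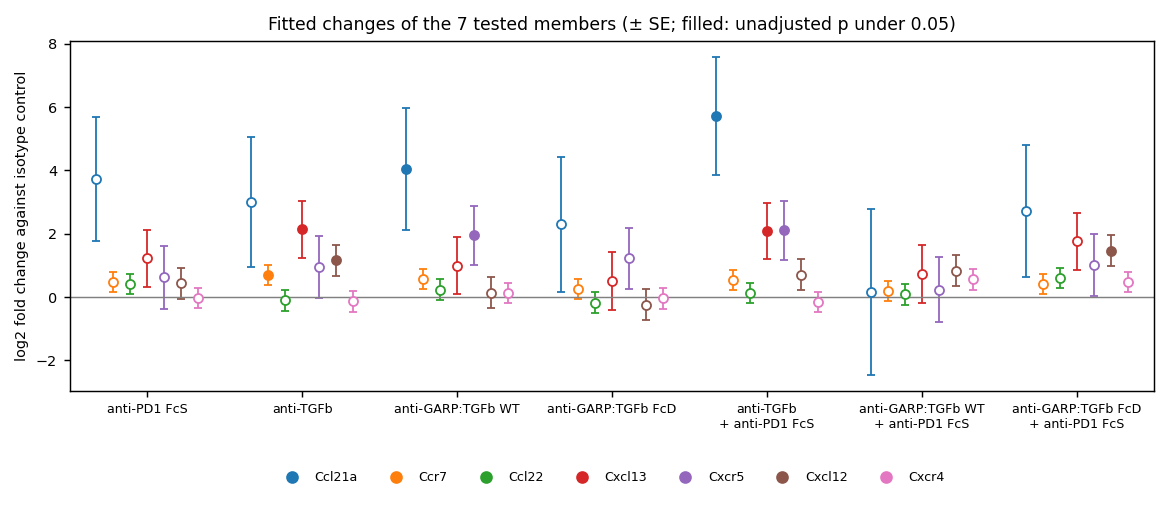
Fitted log2 fold change (± standard error) of the 7 tested members in each treated group against the isotype control, 5 mice in each group. Filled points have an unadjusted p under 0.05. The values for Ccl21a run from 0.16 to 5.72 with the widest errors, and those for Cxcr4 lie between -0.16 and 0.56.

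Ccl21a, a ligand of CCR7, was close to absent in most tumors and high in a few. In the isotype control group it was at 0 in 4 mice and at 0.312 CPM (4 reads) in replicate 4. With anti-TGFb + anti-PD1 FcS the 5 mice had 1.05, 0, 0.0743, 0 and 16.3 CPM, the last from 240 reads, so that 1 mouse made the group mean of 3.48 ± 7.16 (SD, n = 5). That combination therefore overlapped the controls in 3 of 5 mice. With anti-GARP:TGFb WT the values were 4.20, 0.429, 0.381, 0.306 and 0.0816 CPM, and this was the one group with reads in all 5 mice. With anti-PD1 FcS they were 4.03, 0.209, 0, 0 and 0.0728 CPM, and with anti-TGFb 0.487, 2.16, 0, 0 and 0 CPM. In both groups 1 mouse stood above the rest. With anti-GARP:TGFb FcD 1 mouse had 1.56 CPM and 4 were at 0. With anti-GARP:TGFb WT + anti-PD1 FcS the values were 0.293, 0, 0.0639, 0 and 0 CPM, none above the highest control. With anti-GARP:TGFb FcD + anti-PD1 FcS they were 0.918, 0.0744, 0.0797, 1.02 and 0 CPM, with 2 of 5 mice above it, as many as with anti-TGFb + anti-PD1 FcS.

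The fitted log2 fold change of Ccl21a against the isotype control was 5.72 ± 1.87 (SE) with anti-TGFb + anti-PD1 FcS (edgeR adjusted p = 0.142), 4.04 ± 1.93 with anti-GARP:TGFb WT (adjusted p = 1.00) and 2.72 ± 2.07 with anti-GARP:TGFb FcD + anti-PD1 FcS (adjusted p = 0.488). The interaction of anti-GARP:TGFb WT with anti-PD1 FcS was -7.61 ± 2.70 (adjusted p = 0.483), since the WT form alone and anti-PD1 FcS alone each had a mouse above 4 CPM and the combination had none above 0.293 CPM. These folds rest on 4 reads in the controls. Without anti-TGFb + anti-PD1 FcS replicate 5 that group's value was 2.13, and without isotype control replicate 4 it was 8.65. When anti-TGFb + anti-PD1 FcS replicate 1 was left out, Ccl21a was the 1 member called (edgeR adjusted p = 0.0345). In that fit 2022 genes were called against the isotype control, beside 0 with all mice, so the call was not particular to Ccl21a. The value with anti-GARP:TGFb WT was 2.27 without its replicate 1 and 6.97 without isotype control replicate 4, and that with the FcD combination was 5.65 without the latter. With anti-PD1 FcS the fitted value was 3.72, and 0.27 without its replicate 1. With anti-TGFb it was 2.995, and 0.84 without its replicate 2. The interaction was -4.17 without anti-PD1 FcS replicate 1.

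Ccl19, the second CCR7 ligand, had 62 reads in all 40 libraries together. Anti-TGFb + anti-PD1 FcS replicate 5 held 34 of them (2.30 CPM), anti-GARP:TGFb WT replicate 1 held 9, and anti-PD1 FcS replicate 1 and anti-TGFb replicate 2 held 5 each. All 5 isotype control mice were at 0. The 4 mice with at least 5 Ccl19 reads were also the 4 with the highest Ccl21a.

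Ccr7, the receptor of both ligands on naive T cells and mature dendritic cells, was measured in every tumor and varied less. Isotype control mice had 2.22, 3.73, 3.54, 1.87 and 2.57 CPM. With anti-TGFb the values were 4.38, 9.55, 2.86, 3.25 and 2.66 CPM, a mean of 4.54 ± 2.88 (SD, n = 5) beside 2.79 ± 0.814, with 2 of 5 mice above every control. The log2 fold change was 0.70 ± 0.32 (SE; adjusted p = 1.00), and it was 0.23 without anti-TGFb replicate 2. In the same way the value was 0.58 with anti-GARP:TGFb WT and 0.22 without its replicate 1, and 0.46 with anti-PD1 FcS and 0.18 without its replicate 1. The other group means lay between 3.19 CPM with anti-GARP:TGFb WT + anti-PD1 FcS and 4.14 CPM with anti-GARP:TGFb WT. Above every control were 3 of 5 mice with anti-GARP:TGFb FcD + anti-PD1 FcS, 1 with anti-GARP:TGFb WT + anti-PD1 FcS and 2 in each other treated group. Of the 40 mice, the 4 with the highest Ccr7 were anti-TGFb replicate 2, anti-GARP:TGFb WT replicate 1 (7.81 CPM), anti-PD1 FcS replicate 1 (6.51 CPM) and anti-TGFb + anti-PD1 FcS replicate 5 (5.90 CPM), which are 4 of the 6 libraries with high B cell markers.

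Cxcl13, the B cell chemokine of follicles, had the lowest group mean in the isotype control mice, at 1.30, 1.42, 0.139, 0.780 and 0.348 CPM. With anti-TGFb the values were 0.730, 11.2, 0.451, 0.812 and 4.34 CPM. With anti-TGFb + anti-PD1 FcS they were 0.973, 1.65, 2.90, 1.15 and 10.4 CPM. In both groups 1 mouse exceeded 10 CPM and at least 2 lay within the control range. With anti-GARP:TGFb FcD + anti-PD1 FcS the level was more even, at 1.84, 1.19, 2.47, 5.70 and 2.35 CPM, and 4 of 5 mice lay above every control. Means of the remaining groups ran from 1.15 ± 1.16 (SD, n = 5) with anti-GARP:TGFb FcD to 1.88 ± 2.23 with anti-PD1 FcS. The log2 fold change against the isotype control was 2.13 ± 0.89 (SE; adjusted p = 1.00) with anti-TGFb, 2.09 ± 0.89 (adjusted p = 0.201) with anti-TGFb + anti-PD1 FcS and 1.76 ± 0.89 (adjusted p = 0.312) with anti-GARP:TGFb FcD + anti-PD1 FcS, all from edgeR. Leaving out anti-TGFb replicate 2 gave 1.00 for the first value and leaving out anti-TGFb + anti-PD1 FcS replicate 5 gave 1.06 for the second. The library parts also differed: the difference in mean log2 CPM between anti-TGFb + anti-PD1 FcS and the isotype control was -0.08 within libraries 41 to 60 and 2.79 within libraries 61 to 80, and for anti-GARP:TGFb FcD + anti-PD1 FcS it was 0.35 and 2.93. The summed B cell markers were 2.84 to 5.81 CPM in the isotype control mice, 4.91 to 16.9 CPM in the FcD combination and 5.01 to 115 CPM with anti-TGFb + anti-PD1 FcS. The summed dendritic cell markers were 23.6 to 33.2, 34.7 to 72.3 and 26.3 to 47.4 CPM in the same groups. The part of these cells in the Cxcl13 values was not tested.

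Cxcr5, the CXCL13 receptor of B cells and follicular helper T cells, was at most 0.416 CPM (6 reads) in the isotype control mice. With anti-GARP:TGFb WT the mice had 2.58, 0.571, 0.127, 0.917 and 0.245 CPM. With anti-TGFb + anti-PD1 FcS they had 0.374, 0.197, 0.0743, 0.327 and 3.93 CPM. The first group had 3 of 5 mice above every control and the second had 1. The log2 fold changes were 1.95 ± 0.93 (SE; adjusted p = 1.00) and 2.10 ± 0.92 (adjusted p = 0.206), the first was 1.03 without anti-GARP:TGFb WT replicate 1, and the second was 0.11 without anti-TGFb + anti-PD1 FcS replicate 5. In the 2 GARP combinations Cxcr5 stayed between 0.187 and 0.706 CPM.

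**Figure D3:**
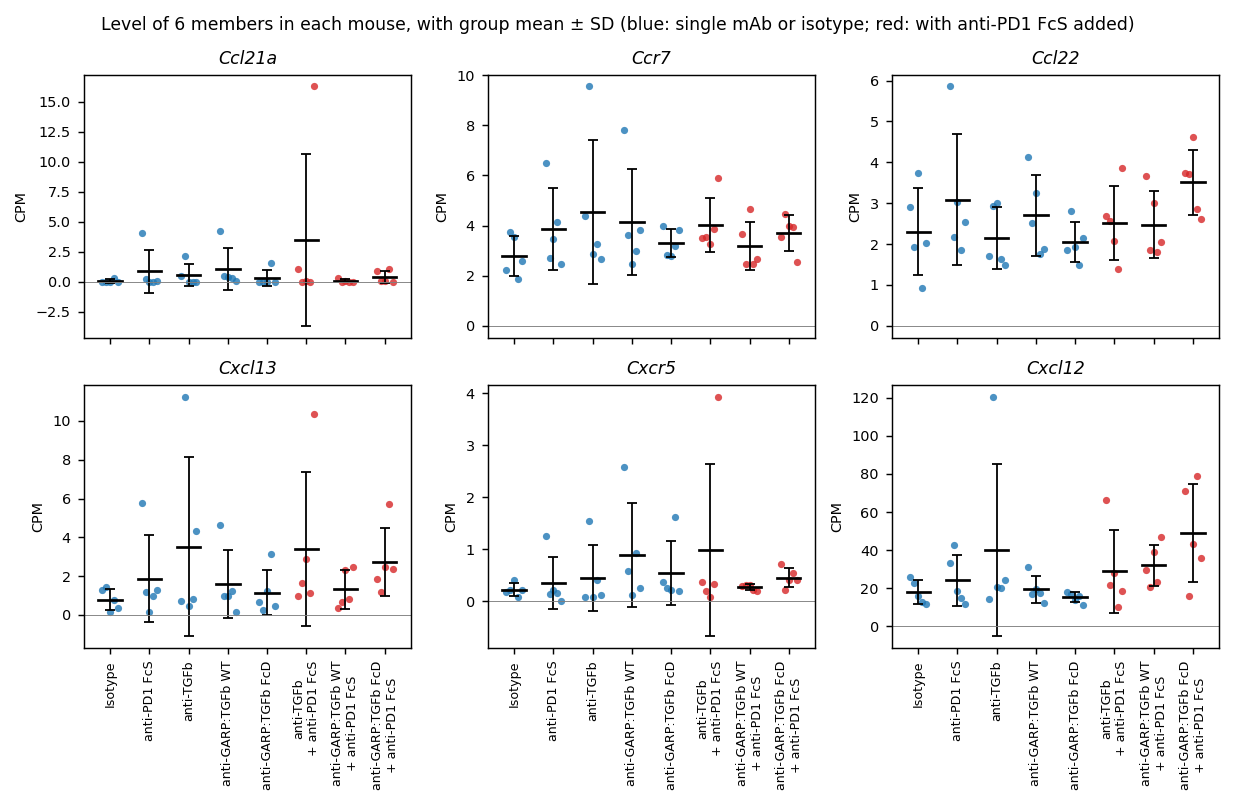
CPM of Ccl21a, Ccr7, Ccl22, Cxcl13, Cxcr5 and Cxcl12 in each mouse (points), with the group mean (bar) and SD (whiskers, n = 5), in blue for the isotype control and single mAbs and in red for mAbs given with anti-PD1 FcS. Single mice carry the means of Ccl21a, Cxcl13 and Cxcr5 with anti-TGFb + anti-PD1 FcS, whereas 4 of 5 mice given anti-GARP:TGFb FcD + anti-PD1 FcS have more Cxcl12 than the highest control (25.9 CPM).

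The tumors high in Ccl19, Ccl21a and Cxcr5 were those high in B cell markers. The 6 libraries named above held 56 of the 62 Ccl19 reads (90.3%), 403 of the 487 Ccl21a reads (82.8%), 157 of the 297 Cxcr5 reads (52.9%) and 527 of the 1170 Cxcl13 reads (45.0%), beside 14.9% of all reads. For the other 6 members the share was between 14.4% (Ccl17) and 23.9% (Ccr4). Since B cells carry Cxcr5 themselves, its reads and those of the markers can come from the same cells. Anti-GARP:TGFb WT + anti-PD1 FcS replicate 5 differed from the other 5 libraries: it had 0 Ccl19 and 0 Ccl21a reads and 3 Cxcr5 reads. Glycam1, a gene of high endothelial venules and of the mammary gland that was at 0 in 28 of 40 libraries, reached 25.8 CPM in anti-TGFb + anti-PD1 FcS replicate 5, 9.43 in anti-GARP:TGFb FcD replicate 4, 3.66 in anti-PD1 FcS replicate 1 and 2.80 in anti-GARP:TGFb WT replicate 1. The remaining 2 libraries of high B cell markers had 1 Glycam1 read (anti-TGFb replicate 2, with 28 Ccl21a reads) and 0 reads (anti-GARP:TGFb WT + anti-PD1 FcS replicate 5). Madcam1, a further venule gene, was at 0 in 22 libraries and at most at 0.813 CPM. The part of these cells in the group differences was not tested.

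Over the 40 mice, the summed B cell markers had a Spearman rho of 0.66 with Cxcl13, 0.61 with Cxcr5, 0.55 with Ccl21a, 0.54 with Ccl19, 0.48 with Cxcl12 and 0.46 with Ccr7, as a description without a test, since the mice share treatments, library parts and depth, and many are tied at 0 for Ccl19. Without the 6 libraries (n = 34) the values were 0.45, 0.49, 0.37, 0.24, 0.45 and 0.34. Cxcl13 had a higher rho with the dendritic cell markers, 0.69 and 0.62 without the 6 libraries. With the separate list of mature dendritic cell markers it was 0.02, and -0.08 without them. Among the 45 pairs of members the highest rho was 0.69, for Ccl19 and Cxcr5, followed by Ccl19 with Ccl21a at 0.68 and Cxcl13 with Cxcl12 at 0.55. Without the 6 libraries only the last remained above 0.5, at 0.53. The genes whose levels were most like Ccl21a over the 40 mice were Mzb1 (rho 0.66), Fcmr (0.63) and Dact1 (0.62), and those most like Cxcr5 were Gpt (0.66), Fcer2a (0.66) and Cd22 (0.65). Fcmr, Fcer2a and Cd22 are B cell genes and Mzb1 is a gene of B and plasma cells. For Ccr7 the 3 were Ralgds (0.70), Ip6k1 (0.69) and Prr5 (0.67), and for Cxcl13 Pacsin1 (0.75), Tspan13 (0.75) and Adgrd1 (0.74).

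**Figure D4:**
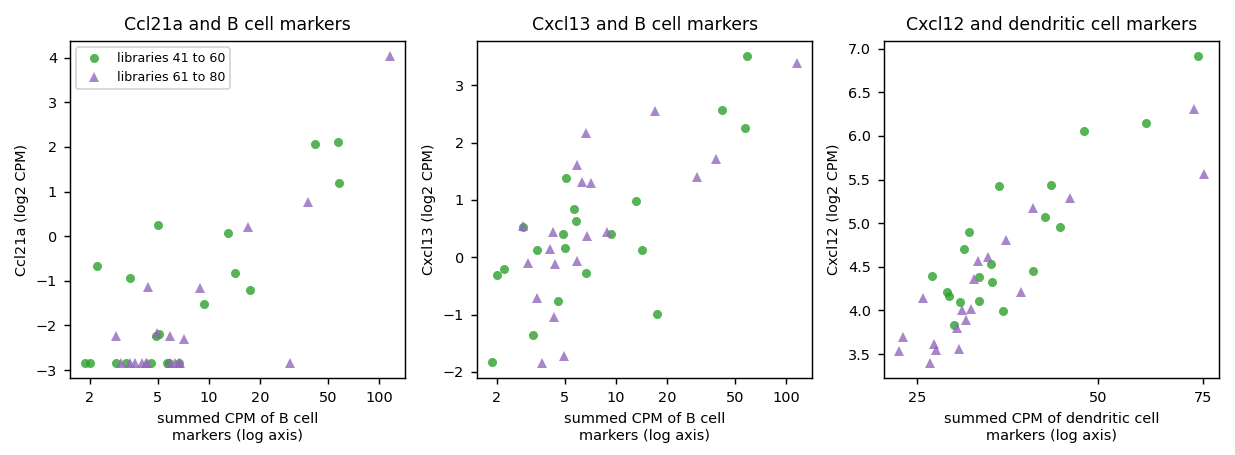
Log2 CPM (prior count 2) of Ccl21a and Cxcl13 against the summed CPM of 8 B cell markers, and of Cxcl12 against the summed CPM of 7 dendritic cell markers, on logarithmic x axes. Each point is 1 of 40 tumors, with circles for libraries 41 to 60 and triangles for libraries 61 to 80. The highest Ccl21a tumor is also the highest in B cell markers (115 CPM), and Cxcl12 and the dendritic cell markers have a rho of 0.83.

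Ccl17 and Ccl22, the CCR4 ligands of dendritic cells and macrophages, and Ccr4 itself had low levels in all groups. Ccl22 was 2.90, 1.94, 3.74, 0.936 and 2.02 CPM in isotype control mice and 3.74, 3.72, 4.62, 2.85 and 2.62 CPM with anti-GARP:TGFb FcD + anti-PD1 FcS, the group with the highest mean (3.51 ± 0.799, SD, n = 5, beside 2.31 ± 1.06). One mouse of that group exceeded every control. The log2 fold change was 0.60 ± 0.32 (SE; adjusted p = 0.335), and in the other comparisons with the isotype control it lay between -0.19 and 0.41. The highest of these others, with anti-PD1 FcS, was 0.033 without anti-PD1 FcS replicate 1. The highest single Ccl22 value, 5.86 CPM, was in anti-PD1 FcS replicate 1, where Ccl21a and Cxcl13 were also the highest of their group. Ccl17 did not pass the filter, with 1 to 11 reads in each of the 40 libraries, and its group means ran from 0.372 CPM with anti-GARP:TGFb WT + anti-PD1 FcS to 0.545 CPM with anti-TGFb, each within 1 SD of the isotype control (0.415 ± 0.224). Ccr4, the receptor of both, had 67 reads in all libraries together and at most 6 in a library, and its group differences were not tested. Isotype control mice had 0, 1, 0, 0 and 2 Ccr4 reads (at most 0.139 CPM) and anti-PD1 FcS mice 3, 3, 0, 6 and 3 reads (at most 0.443 CPM), so that 4 of 5 of the latter lay above every control. In the other groups 1 to 3 mice did. The genes most like Ccl22 were Meg3 (rho 0.65), Svip (0.64) and Synpo2 (0.62).

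Cxcl12, the stromal ligand of CXCR4, was the member with the most reads and the one with the smallest p when anti-GARP:TGFb FcD + anti-PD1 FcS was compared with the isotype control. Isotype control mice had 25.9, 23.0, 15.9, 12.8 and 11.7 CPM. With anti-GARP:TGFb FcD + anti-PD1 FcS the values were 70.8, 15.8, 43.2, 79.0 and 36.0 CPM, so that 4 of 5 mice lay above every control. With anti-GARP:TGFb WT + anti-PD1 FcS they were 29.8, 20.7, 38.9, 23.5 and 47.0 CPM, with 3 of 5 above. The means were 48.95 ± 25.9 and 31.98 ± 10.9 CPM, beside 17.8 ± 6.29 in the controls (SD, n = 5). The WT and FcD forms given alone had means of 19.5 ± 7.0 and 15.2 ± 2.59 CPM, close to the controls. With anti-TGFb the mice had 14.1, 120.4, 20.8, 20.4 and 24.3 CPM, and with anti-TGFb + anti-PD1 FcS 66.4, 21.8, 27.9, 10.4 and 18.4 CPM. In each of these 2 groups 1 mouse was more than 2 times as high as the next. With anti-PD1 FcS alone the values were 33.4, 42.8, 18.4, 14.7 and 11.5 CPM.

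The log2 fold change of Cxcl12 against the isotype control was 1.46 ± 0.49 (SE) with anti-GARP:TGFb FcD + anti-PD1 FcS (adjusted p = 0.235) and 0.83 ± 0.49 with anti-GARP:TGFb WT + anti-PD1 FcS (adjusted p = 0.314). With anti-TGFb it was 1.17 ± 0.49 (adjusted p = 1.00) and only 0.15 without anti-TGFb replicate 2. Against anti-PD1 FcS, the FcD combination was higher by 1.03 ± 0.49 (adjusted p = 0.458), and against the WT combination by 0.62 ± 0.48 (adjusted p = 1.00), all from edgeR. When each of the 10 mice was left out in turn, the first value stayed between 1.22 and 1.67 with an adjusted p of at least 0.0754. Without the 6 libraries of high B cell markers, none of which is in either group, it was 1.44 with an adjusted p of 0.0399, and Cxcl12 was then the 1 member called. All 10 mice compared are the same in both fits, and 688 genes passed the threshold in the smaller fit. Within libraries 41 to 60 the difference in mean log2 CPM was 0.58, and within libraries 61 to 80 it was 1.99. For the WT combination against the isotype control these differences were 0.027 and 1.38, and for the FcD combination against anti-PD1 FcS 0.29 and 2.02.

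The tumors with the most Cxcl12 also had more of other cells' markers. The 5 highest were anti-TGFb replicate 2, anti-GARP:TGFb FcD + anti-PD1 FcS replicates 4 and 1, anti-TGFb + anti-PD1 FcS replicate 1 and anti-GARP:TGFb WT + anti-PD1 FcS replicate 5. Their summed CPM of 4 adipocyte markers (Adipoq, Plin1, Cidec and Lep) was 142, 189, 81.3, 44.3 and 33.9 in that order, and their 7 dendritic cell markers summed to 73.5, 72.3, 60.2, 47.4 and 75.2 CPM. The adipocyte sum was 0.696 to 24.2 CPM in the isotype control mice and 10.8 to 189 CPM in the FcD combination, and the dendritic cell sum 23.6 to 33.2 and 34.7 to 72.3 CPM. In the FcD combination 0 of the 7 dendritic cell markers and 0 of the 4 adipocyte markers had an adjusted p under 0.05, and 6 and 4 of them had an unadjusted one, all higher, beside 0% and 16.6% of all genes. The dendritic cell list includes Zbtb46, which had a median of 17.0 CPM and so makes a large part of the reads in the sum. The part of these cells in the Cxcl12 difference was not tested.

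Over the 40 mice Cxcl12 had a rho of 0.83 with the dendritic cell markers, 0.74 with regulatory T cell markers, 0.72 with adipocyte markers, 0.70 with neutrophil markers and 0.61 with Ptprc, the pan-leukocyte gene. With the separate list of mature dendritic cell markers it was -0.40, and Fscn1 makes most of the sum of that list. With markers of fibroblasts and reticular cells, which include Pdgfra and Col1a1, it was 0.18 over all mice, 0.59 within libraries 41 to 60 and 0.15 within libraries 61 to 80, and Col1a2 (median 1167 CPM) makes most of that sum. The 3 genes most like Cxcl12 were Lpl (rho 0.93), Vcan (0.91) and Dclk1 (0.90). These were the highest such values among the 7 members for which likeness was computed. Lpl encodes lipoprotein lipase, an enzyme of adipocytes and macrophages, and Vcan a proteoglycan of the extracellular matrix.

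Cxcr4, the CXCL12 receptor of most leukocytes and of growing endothelium, had its highest group means in the 2 GARP combinations, 22.5 ± 15.6 and 20.9 ± 8.89 CPM (SD, n = 5) with the WT and the FcD form beside 15.2 ± 2.49 in the isotype control. Isotype control mice had 12.7, 17.6, 18.1, 14.3 and 13.3 CPM, and anti-PD1 FcS mice 13.3 to 16.7 CPM. With anti-GARP:TGFb WT + anti-PD1 FcS the values were 18.5, 10.2, 19.4, 14.7 and 49.5 CPM, and with the FcD combination 34.9, 16.1, 13.5, 24.6 and 15.4 CPM. Of these, 3 of 5 and 2 of 5 mice lay above every control. The means of the other groups lay between 13.5 and 16.6 CPM, and the log2 fold change of the WT combination against the isotype control was 0.56 ± 0.32 (SE; adjusted p = 0.307), and 0.037 without replicate 5 of that group. Its rho was 0.56 with blood endothelial markers and 0.36 with Cxcl12, and the genes most like it were Angpt2 (0.77), Notch4 (0.74) and Myct1 (0.72), all 3 genes of endothelial cells. Anti-GARP:TGFb WT + anti-PD1 FcS replicate 5, with the highest Cxcr4, also had the highest sums of blood endothelial (432 CPM), macrophage (4349 CPM) and T cell markers (268 CPM) and the highest Ptprc (783 CPM). The part of these cells in its Cxcr4 level was not tested.

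**Figure D5:**
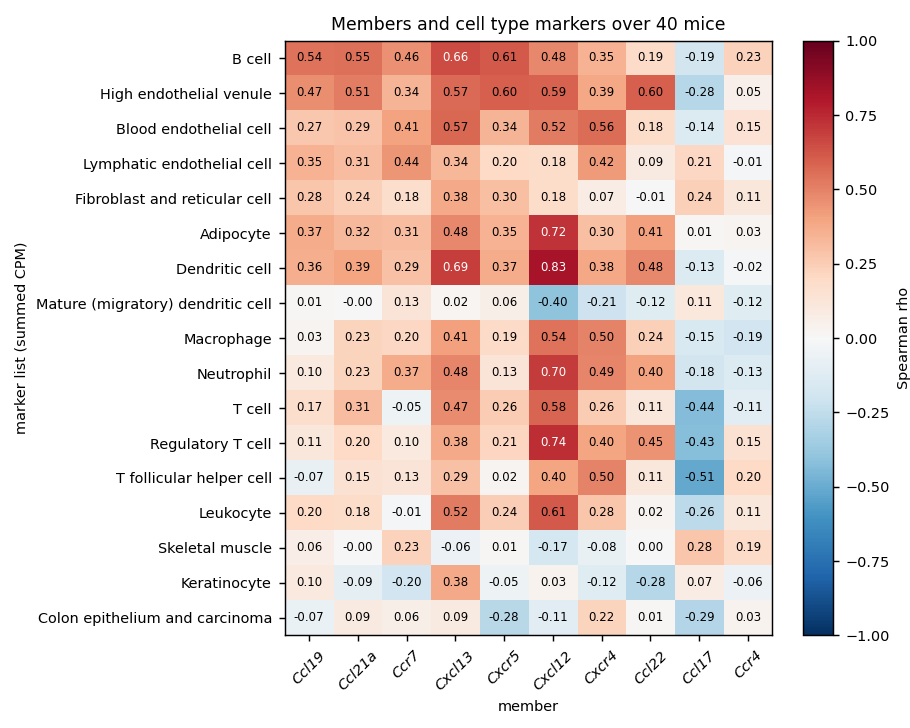
Spearman rho over 40 tumors between each of the 10 members (columns, log2 CPM) and the summed CPM of 17 marker lists (rows), printed in each cell. Ccl19, Ccl21a, Cxcl13 and Cxcr5 are above 0.5 with B cell markers. Cxcl12 is at 0.83 with dendritic cell markers and at -0.40 with mature dendritic cell markers, and Ccl17 is below 0 with most leukocyte lists.

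Mature dendritic cells are a known source of Ccl17, Ccl22 and Ccr7. Lamp3, a defining marker of these cells, was at 0 in 24 of 40 libraries and at most at 0.308 CPM, and Fscn1 of the same list had a median of 227 CPM. The sum of this list is thus mostly Fscn1, and its rho was 0.13 with Ccr7, 0.11 with Ccl17 and -0.12 with Ccl22. Il21 of the follicular helper T cell list was at 0 in 32 libraries, and the sum of that list is mostly Bcl6 (median 35.8 CPM). The lymphatic endothelial marker Prox1 was at 0 in 20 libraries.

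Other chemokine axes were examined with a list of 24 genes, 19 of which were tested. None had an adjusted p under 0.05 in any of the 15 comparisons (edgeR). Against the isotype control, 7 had an unadjusted p under 0.05 with anti-GARP:TGFb FcD + anti-PD1 FcS, 6 with anti-TGFb + anti-PD1 FcS and 4 with anti-GARP:TGFb WT + anti-PD1 FcS, all higher, beside 16.6%, 20.1% and 20.6% of all genes. With anti-TGFb alone Cxcl10 and Cxcl11 had one, at log2 fold changes of 0.54 ± 0.24 and 0.68 ± 0.32, beside 2.32% of all genes. No gene of the list had one with the other single mAbs. Cx3cl1, the ligand of CX3CR1, had the smallest p with both GARP combinations, at a log2 fold change of 1.70 ± 0.39 (SE; adjusted p = 0.225) with the FcD form and 1.37 ± 0.39 (adjusted p = 0.159) with the WT form. With anti-TGFb + anti-PD1 FcS it was Cxcl10, a ligand of CXCR3, at 0.92 ± 0.24 (adjusted p = 0.108). Ackr3, the decoy receptor that scavenges CXCL12, had log2 fold changes between -0.24 ± 0.16 (with anti-GARP:TGFb WT + anti-PD1 FcS) and 0.14 ± 0.16 (with anti-PD1 FcS) against the isotype control, with no unadjusted p under 0.05 in these 7 comparisons. In the interaction of anti-GARP:TGFb WT with anti-PD1 FcS it was -0.47 ± 0.22 (edgeR unadjusted p = 0.0416, adjusted p = 0.483). At an unadjusted p under 0.05 that comparison held 8.75% of all genes.

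Genes that organize lymphoid tissue, such as lymphotoxins and their receptor, IL-7 and the noncanonical NF-κB pathway, were examined with a list of 15, of which 14 were tested. None had an adjusted p under 0.05 in any comparison. At an unadjusted p under 0.05 against the isotype control, 2 were higher and 1 lower with the WT combination (20.6% of all genes) and with the FcD combination (16.6%), and 1 was lower with anti-TGFb + anti-PD1 FcS (20.1%). Il7r, the IL-7 receptor of T cells, had the smallest p with the WT combination, at a log2 fold change of 2.04 ± 0.60 (SE; adjusted p = 0.159), and with the FcD combination, at 1.67 ± 0.60 (adjusted p = 0.237). Nfkb2 was lower by 0.42 and 0.30 on the log2 scale in the same comparisons (adjusted p = 0.159 and 0.263, edgeR). The medians of the 14 genes against the isotype control lay between -0.03 and 0.26.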

How the data were processed

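Per the submitters' processing notes, paired reads of stranded mRNA libraries were aligned to GRCm38 (STAR 2.5.3a, SAMtools 1.6) and counted per gene (HTSeq 0.9.1), and the authors deposited the raw counts, which were used here as deposited; 0 columns were left out. The labels do not say whether mice shared cages or days, so p-values measure the spread between these mice. The members and all gene and marker lists were chosen with earlier results of these data known. Genes were filtered with filterByExpr (14760 of 54087 kept) and tested with edgeR 4.0.16 (TMM, robust quasi-likelihood fit of all 40 mice, R 4.3.3), and p-values were adjusted over all genes tested by the Benjamini-Hochberg method. Standard errors were taken from the fold change and its F statistic (their ratio on the root scale). Named genes were the 3 with the smallest p of each list and, for likeness, the 3 with the highest Spearman rho to each tested member. The alternatives were DESeq2 1.42.0 (test and size factors), no filter, the compared groups alone, the library part as a covariate and leaving out single mice. The fit without the 6 libraries of high B cell markers was chosen after seeing the data. The test was tried on simulated counts. Marker genes that the text does not name entered the sums of their lists and are not reported here. Promoter windows are from RefSeq (GRCm38.p6).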

Additional observations from a re-analysis of the deposited data

Results flagged for a closer look

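In each treatment group of 5 mice, the gap between the highest or lowest mouse and its nearest neighbor was divided by the range of the group for the 7 tested members. This was done on log2 CPM (prior count 2). The levels printed beside the ratios are in CPM, on which the ratios would differ. Of 56 groups, 7 had a mouse past Dixon's limit of 0.71 on the log2 scale, and chance alone passes about 1 in 20 groups of normally distributed values. That rate does not apply to Ccl21a, whose groups hold many zeros: with 4 mice at 0 the ratio is 1.00 for any number of reads in the fifth. For Ccl21a the mice were isotype control replicate 4 (ratio 1.00, 0.312 CPM from 4 reads with the others at 0), anti-GARP:TGFb FcD replicate 4 (ratio 1.00, 1.56 CPM from 23 reads with the others at 0) and anti-PD1 FcS replicate 1 (ratio 0.730, 4.03 CPM with the next at 0.209). Anti-GARP:TGFb FcD replicate 4 also stood apart in Cxcr5 (ratio 0.753, 1.63 CPM with the next at 0.372). Anti-TGFb + anti-PD1 FcS replicate 5 stood apart in Ccr7 (ratio 0.726, 5.90 CPM with the next at 3.85) and anti-TGFb replicate 2 in Cxcl12 (ratio 0.748, 120.4 CPM with the next at 24.3). These 4 treated mice are among the 6 with summed B cell markers of at least 30.0 CPM. The 1 low mouse was anti-TGFb + anti-PD1 FcS replicate 4, with a Cxcr4 level of 7.53 CPM below the next at 14.0 (ratio 0.823). The part of other cells in these values was not tested.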

How the results depend on the processing

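With DESeq2 size factors, DESeq2's test, no filter, the compared groups alone or the library part as a covariate, the 51 log2 fold changes of members kept their direction and their side of the threshold. DESeq2's test called 1 gene each with anti-PD1 FcS, anti-TGFb and anti-GARP:TGFb WT against the isotype control, 14 with anti-GARP:TGFb FcD + anti-PD1 FcS, 139 with anti-TGFb + anti-PD1 FcS, 78 for the latter against anti-PD1 FcS, 1 and 2 for the interactions of anti-GARP:TGFb WT and anti-TGFb with anti-PD1 FcS, and 1256 for any difference among the groups. With the library part as a covariate the calls were 17 with anti-GARP:TGFb FcD + anti-PD1 FcS and 35 for any difference, with the compared groups alone 7 with anti-TGFb + anti-PD1 FcS and 0 against anti-PD1 FcS, and with no filter 9 for any difference. Without the 6 libraries of high B cell markers, anti-GARP:TGFb FcD + anti-PD1 FcS gave 688 genes and 1 member (Cxcl12) against the isotype control and 27 genes against anti-PD1 FcS, anti-TGFb + anti-PD1 FcS gave 0 against anti-PD1 FcS, and any difference gave 298. In that fit 6 uncalled log2 fold changes against the isotype control reversed: Cxcr5 to -0.80 with anti-PD1 FcS and -0.34 with anti-TGFb, Cxcl12 to -0.10 with anti-GARP:TGFb WT, Ccl21a to -2.92 and Cxcl13 to -0.28 with anti-GARP:TGFb FcD, and Ccl22 to -0.080 with anti-TGFb + anti-PD1 FcS. The cause was not tested.

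When each mouse was left out in turn, the genes called ranged from 0 to 2022 with anti-TGFb + anti-PD1 FcS (members 0 to 1), from 0 to 1750 for it against anti-PD1 FcS, from 0 to 1 for the interaction of anti-TGFb with anti-PD1 FcS and from 0 to 2311 for any difference (members 0 to 1), each highest without anti-TGFb + anti-PD1 FcS replicate 1, and from 0 to 547 for anti-GARP:TGFb WT + anti-PD1 FcS against anti-PD1 FcS, highest without anti-PD1 FcS replicate 2. The uncalled log2 fold changes against the isotype control that changed sign ranged for Cxcr5 from -0.80 to 0.95 with anti-PD1 FcS and from -0.34 to 1.28 with anti-TGFb, for Cxcr4 from -0.087 to 0.038 with anti-PD1 FcS, from -0.033 to 0.20 with anti-GARP:TGFb WT and from -0.24 to 0.082 with anti-GARP:TGFb FcD, and for Ccl22 from -0.30 to 0.13 with anti-TGFb, from -0.38 to 0.053 with anti-GARP:TGFb FcD, from -0.11 to 0.32 with anti-GARP:TGFb WT + anti-PD1 FcS and from -0.079 to 0.37 with anti-TGFb + anti-PD1 FcS. They ranged for Cxcl12 from -0.10 to 0.31 with anti-GARP:TGFb WT, for Ccl21a from -2.93 to 5.22 with anti-GARP:TGFb FcD and from -1.45 to 3.09 with anti-GARP:TGFb WT + anti-PD1 FcS, and for Cxcl13 from -0.28 to 0.82 with anti-GARP:TGFb FcD. Depth limits Ccl19, Ccr4, Ccl21a and Cxcr5 most, whose median library held 0, 2, 1 and 3 reads.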
